A study of Mus musculus with 2 samples.

Results

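The genes described here are 10 members of the Notch pathway, namely the receptors *Notch1*, *Notch2* and *Notch3*, the ligands *Jag1* and *Jag2*, the nuclear effector *Rbpj*, and the downstream genes *Hes1*, *Hey1*, *Nrarp* and *Dtx4*, out of 24421 gene symbols counted. They were chosen by symbol, on values of the comparison below, because *Hes1* was lower in the library labelled Ezh2 KO while *Notch1* was not. All differences are therefore given as descriptions, with no test. RNA was taken from mouse hematopoietic stem cells (HSCs, the marrow cells that renew themselves and form all blood lineages) of strain C57BL/6, sorted by the surface phenotype CD150+CD48-CD34-Flt3- LSK (LSK cells are negative for lineage markers, positive for Sca-1 and c-Kit). There was 1 library labelled WT, of genotype Ezh2 +/+ CreERT+/-, and 1 labelled Ezh2 KO, of genotype Ezh2 Δ/Δ CreERT+/-. Both genotypes carried the tamoxifen-inducible Cre-ERT recombinase, whose promoter the labels do not name, and the floxed *Ezh2* allele was present only in the second. Marrow of CD45.2 donors was grafted into CD45.1 hosts after lethal irradiation, 100 µl of tamoxifen (10 mg/ml) was given once a day over 5 days, and HSCs were sorted 1 month later. The protocol text is the same for both libraries. The surface markers in the sample labels do not include the donor antigen CD45.2, although the methods name it among the antibodies used for cytometry and sorting. The number, age and sex of the mice in each library are not stated.

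Notch is a receptor cut in steps after it binds a Delta or Jagged ligand on a neighbouring cell. The freed intracellular part enters the nucleus, joins the DNA-binding protein RBPJ and a Mastermind coactivator, and switches on genes such as *Hes1*, which encodes a basic helix-loop-helix (HLH) repressor. Without the intracellular part, RBPJ holds the same genes down with corepressors. Notch signalling is best known in blood for directing progenitors to the T-cell fate, and *Ezh2* encodes a methyltransferase of Polycomb repressive complex 2, which silences developmental genes.

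Gene counts summed to 5763118 in WT against 4157280 in the Ezh2 KO-labelled library. A level of 3 counts, taken as the floor, equalled 0.521 and 0.722 CPM (gene counts scaled to a common library total). *Ezh2*, the targeted gene, had 166 and 129 counts (142 and 150 normalised counts), so gene-level counts did not show the deletion, and the second library is named by its label throughout. The libraries also stood apart in sex-linked genes. *Xist* had 801 counts in WT against 4 in the second library, while the Y-linked *Ddx3y* and *Eif2s3y* had 0 in WT and 275 and 194 in the other. All 10 HSC markers were detected in both libraries and 0 of 10 were past 2-fold. Their log2 ratios ran from -0.70 to 0.32 (median -0.07). Genotype, sex of the cells and library preparation cannot be told apart with 1 library per group. Intervals and floors given below cover counting error only, because amplified reads with no molecular identifiers may be copies of 1 molecule, and no value has a replicate check. In bulk RNA, fewer cells of a type and less RNA per cell cannot be told apart.

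RBPJ binds the letters GTGGGAA, with TGGGAA as a looser core, and HES repressors bind the class C site CACGNG and the N-box CACNAG. These letters were sought on both strands in RefSeq promoters (GRCm38.p6, from 250 bases before to 50 bases after a start). The core lies inside the RBPJ letters, and CACGAG fits both HES sites. Of the 10 genes, 7 had 8 promoter entries (*Rbpj* had 2), and *Hes1*, *Hey1* and *Dtx4* had none. GTGGGAA was found in 0 of the 8 and TGGGAA in 2, against 6.38% and 25.6% of all 32851 promoters. Both entries with TGGGAA are of *Rbpj*, and their windows overlap and share a core site. The class C site was found in 5 of the 8 and the N-box in 4, against 27.5% and 42.5%. Below are *Nrarp*, the only target among the 10 with an entry, and, for contrast, *Lfng* and *Hes5*, pathway genes whose windows do hold the RBPJ letters. Capitals mark RBPJ letters, the core and class C sites, and positions are those of the first base counted from the start.

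The window of *Nrarp* is chr2:25180508-25180807, plus strand, with 1 class C site at -108. That of *Lfng* is chr5:140607091-140607390, plus strand, with RBPJ letters at -109 that overlap a class C site at -112, a further core at -135 and class C sites at -181 and -55. That of *Hes5* is chr4:154960673-154960972, plus strand, with RBPJ letters at -226 and -83 and no class C site.

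Nrarp: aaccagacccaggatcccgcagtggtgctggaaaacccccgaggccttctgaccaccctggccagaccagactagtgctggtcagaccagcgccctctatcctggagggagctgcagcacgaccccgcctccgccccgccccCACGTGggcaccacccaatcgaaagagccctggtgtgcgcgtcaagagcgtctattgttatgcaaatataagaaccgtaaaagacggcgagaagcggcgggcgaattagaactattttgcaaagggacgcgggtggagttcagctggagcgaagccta

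Lfng: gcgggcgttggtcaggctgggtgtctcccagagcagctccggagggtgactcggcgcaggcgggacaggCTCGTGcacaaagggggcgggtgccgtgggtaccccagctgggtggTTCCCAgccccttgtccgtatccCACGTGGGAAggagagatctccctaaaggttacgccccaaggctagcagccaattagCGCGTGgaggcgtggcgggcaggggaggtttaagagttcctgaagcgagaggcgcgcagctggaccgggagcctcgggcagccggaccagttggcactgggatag

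Hes5: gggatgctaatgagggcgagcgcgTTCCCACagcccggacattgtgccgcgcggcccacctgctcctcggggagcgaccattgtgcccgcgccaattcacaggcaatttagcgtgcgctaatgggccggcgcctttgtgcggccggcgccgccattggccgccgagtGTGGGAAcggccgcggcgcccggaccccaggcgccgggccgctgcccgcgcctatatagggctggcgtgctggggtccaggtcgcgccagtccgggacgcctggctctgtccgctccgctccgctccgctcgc

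Of the 10 genes, 9 passed the filter of a mean of at least 1 CPM and were compared, and *Hey1* did not pass. Relative to WT, *Hes1* and *Dtx4* were more than 2-fold lower in the library labelled Ezh2 KO, *Notch3* was more than 2-fold higher at very few reads, and the other 6 stayed within 2-fold. Over all 12588 genes that passed the filter, 4.91% were past 2-fold higher and 3.9% past 2-fold lower. Since the genes were chosen on this comparison, nothing is read from their share. Normalised counts are raw counts divided by DESeq2 size factors, and each ratio is log2 of the normalised count plus 1, library labelled Ezh2 KO over WT. Brackets after a ratio give an exact 95% counting interval, which is that of the log2 ratio formed without the added 1.

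The receptors were dominated by *Notch2* (chromosome 3, 98013527 to 98150361 in mm10, plus strand). It had 1232 counts in WT against 792 in the Ezh2 KO-labelled library, or 1057 and 923 normalised counts, with a log2 ratio of -0.20 (-0.33 to -0.07). *Notch1* (chromosome 2, 26457903 to 26516663, minus strand), the receptor that drives T-cell commitment, had 264 and 233 counts, or 227 and 272 normalised counts. Its log2 ratio was 0.26, and its interval (0.00079 to 0.52) began just above 0. *Notch1* was thus slightly higher and *Notch2* slightly lower in the library labelled Ezh2 KO, both well within 2-fold. *Notch3* (chromosome 17, 32120820 to 32166852, minus strand) had only 10 and 18 counts, or 8.58 and 21.0 normalised counts. Its log2 ratio of 1.20 had a wide interval (0.10 to 2.57). Changes of this size were common at its level: genes were split into 10 groups of equal size by mean normalised count, and in the lowest, to which *Notch3* belonged, 313 of 1259 genes (24.9%) were past 2-fold higher.

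Of the ligands, *Jag2* (chromosome 12, 112907819 to 112929776, minus strand) was the more abundant, with 180 counts in WT against 104 in the Ezh2 KO-labelled library (154 and 121 normalised counts, log2 ratio -0.35, -0.71 to 0.0062). *Jag1* (chromosome 2, 137081456 to 137116644, minus strand) had 17 and 14 counts, or 14.6 and 16.3 normalised counts, and a log2 ratio of 0.15 (-0.97 to 1.27). Both intervals held 0, and that of *Jag1* spans values from nearly 2-fold lower to over 2-fold higher. *Rbpj* (chromosome 5, 53466152 to 53657362, plus strand), the DNA-binding partner of every Notch receptor, had 415 and 270 counts, or 356 and 315 normalised counts. Its log2 ratio was -0.18 (-0.41 to 0.05), so no difference was detectable at this depth.

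Among downstream genes, *Hes1* (chromosome 16, 30064384 to 30067796, plus strand) had 193 counts in WT against 41 in the Ezh2 KO-labelled library. This is 166 and 47.8 normalised counts, a difference of 3.42-fold and a log2 ratio of -1.77 (-2.32 to -1.30). The whole interval lay beyond 2-fold, which held for no other gene of the 10. *Hes1* had the place 156 from the lowest ratio among all 12588 genes compared. It had the place 3 among the 8083 genes whose mean reached 100 normalised counts, of which 0.569% were past 2-fold lower. Its own mean was 107, near that cut, and it was chosen for its lower ratio, so these places are descriptions. In its own group by level (means of 75.5 to 121 normalised counts), 37 of 1258 genes (2.94%) were past 2-fold lower.

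*Dtx4* (chromosome 19, 12466338 to 12501454, minus strand) encodes a ubiquitin ligase of the Deltex family, whose founding member acts on Notch. It had 58 and 15 counts, or 49.8 and 17.5 normalised counts, a log2 ratio of -1.46 (-2.44 to -0.67). Its interval left out 0 but reached inside 2-fold, and in its group by level (means of 15.3 to 38.6) 148 of 1259 genes (11.8%) were past 2-fold lower. *Nrarp* (chromosome 2, 25180758 to 25183339, plus strand), a Notch target whose ankyrin-repeat product restrains Notch, had 118 and 61 counts, or 101 and 71.1 normalised counts. Its log2 ratio was -0.50 (-0.98 to -0.05), on the same side as *Hes1* but a smaller difference. *Hey1* (chromosome 3, 8663359 to 8667256, minus strand), a repressor related to HES proteins, had 0 counts in both libraries, which allows a level of up to 0.521 CPM in WT and 0.722 CPM in the other.

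**Figure D1:**
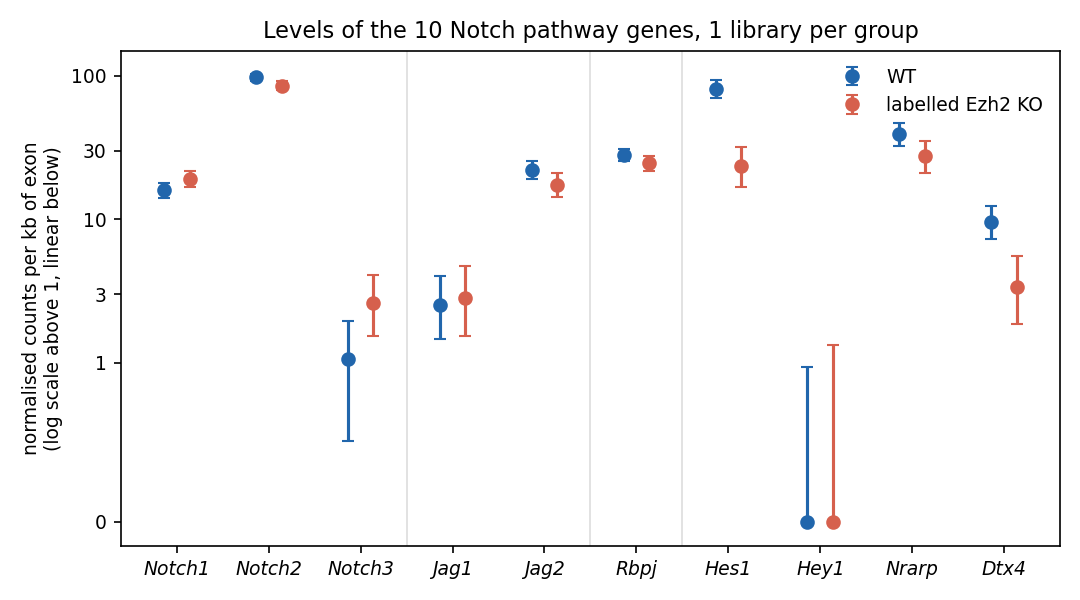
Normalised counts per kilobase of exon of the 10 genes in the WT library (blue) and the library labelled Ezh2 KO (red), on a log scale above 1 and a linear scale below. Bars are exact Poisson 95% intervals of each single count, and the grey lines part receptors, ligands, *Rbpj* and downstream genes. *Hes1* is at 81.3 (WT) and 23.5, whereas *Rbpj* is at 27.9 and 24.7 and *Hey1* at 0.

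**Figure D2:**
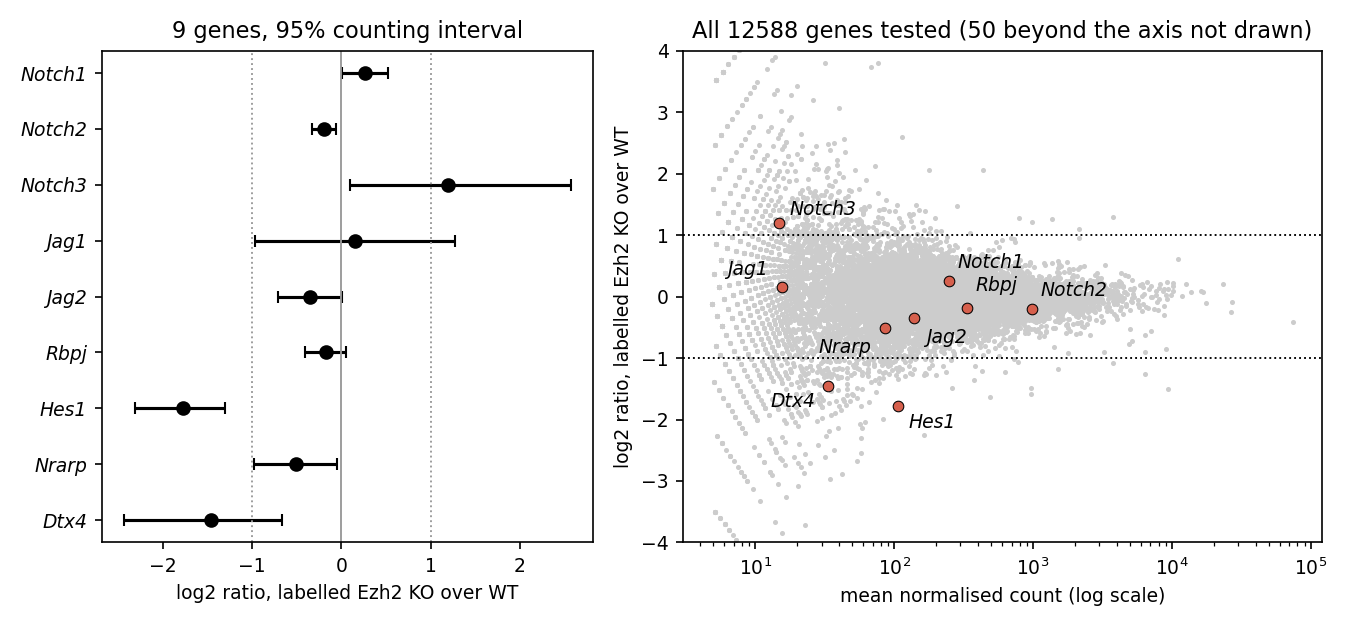
Left, log2 ratio (library labelled Ezh2 KO over WT) of the 9 genes compared, with exact 95% counting intervals; dotted lines mark 2-fold. Right, the same ratio for all 12588 genes compared (grey) against the mean normalised count on a log scale, with the 9 genes in red and *Hes1* at -1.77 below most genes of its level.

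By counting error alone, the interval left out 0 for 6 of the 9 genes, above it for *Notch1* and *Notch3* and below it for *Notch2*, *Hes1*, *Nrarp* and *Dtx4*. The same held for 19.2% of all genes compared above 0 and for 20.8% below it, so an interval that leaves out 0 was common between these libraries. Directions did not depend on the scaling: over all scalings, pseudocounts, thinning and trend corrections, *Hes1* ranged from -1.84 to -1.69, *Dtx4* from -1.57 to -1.28, *Nrarp* from -0.55 to -0.48, and *Notch1* from 0.22 to 0.32. *Notch3* ranged from 0.94 to 1.24 and was the only one of the 3 genes past 2-fold to cross that line.

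Levels of different genes were compared per kilobase of annotated exon, a scale on which *Notch2* came first in WT, with 98.1 normalised counts per kb (exact Poisson 95% interval 92.7 to 104), followed by *Hes1* with 81.3 (70.2 to 93.6). Those intervals overlapped. *Nrarp* came next with 39.2, then *Rbpj* with 27.9 and *Jag2* with 22.2, whose intervals overlapped, then *Notch1* with 15.9 and *Dtx4* with 9.52. *Jag1* (2.50), *Notch3* (1.06) and *Hey1* (0) closed the order, and neighbours among these 3 overlapped. In the library labelled Ezh2 KO, *Notch2* was again first with 85.6 (79.7 to 91.8), and its interval overlapped none. *Nrarp* (27.5), *Rbpj* (24.7), *Hes1* (23.5), *Notch1* (19.1) and *Jag2* (17.4) followed, each overlapping the next. *Hes1* thus stood beside *Notch2* in WT and among *Rbpj* and *Notch1* in the other library. Exon lengths are unions over all annotated isoforms, so the level of a gene with many isoforms, such as *Rbpj* at 12750 bases, can be understated.

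A ratio of counts to those of *Notch1* within a library needs no scaling. For each *Notch1* count there were 0.731 *Hes1* counts in WT against 0.176 in the Ezh2 KO-labelled library, a log2 odds ratio of -2.05 (exact 95% interval -2.64 to -1.49). *Dtx4* had 0.220 and 0.0644 counts per *Notch1* count (-1.77, -2.73 to -0.88), and *Nrarp* 0.447 and 0.262 (-0.77, -1.31 to -0.24). *Notch2*, *Rbpj* and *Jag2* were also lower relative to *Notch1*, with log2 odds ratios of -0.46, -0.44 and -0.61 and intervals that left out 0. All these odds share *Notch1*, whose own log2 ratio was 0.26. The intervals of the scaled ratios of *Rbpj* (-0.41 to 0.05) and *Jag2* (-0.71 to 0.0062) held 0. For *Jag1* (-0.10) and *Notch3* (1.03) the intervals held 0. The rule that chose the genes used this contrast of *Hes1* with *Notch1*, so it is a description. The other odds are descriptions too, because the rule took *Notch1* as a gene that was not lower.

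Some of these counts carry an annotation limit. Exons of *Nrarp* share 2051 bases with the antisense gene *Gm38287*, and *Notch1* and *Notch3* share 1068 and 488 bases with *0610009E02Rik* and *Gm17276* on the opposite strand. *Notch2* shares 541 bases with *Gm42820* on its own strand. Those 4 genes are not among the counted symbols, and whether counting used strand is not stated, so their reads cannot be told apart from those of the Notch genes. *Hes1*, *Hey1*, *Dtx4*, *Jag1*, *Jag2* and *Rbpj* shared no exon base with another annotated gene.

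The wider pathway was then read from a list of 82 genes, of which 68 were compared. Of these, 4 were past 2-fold higher and 2 past 2-fold lower, or 5.88% and 2.94%, near the 4.91% and 3.9% of all genes. The median log2 ratio was -0.05, against -0.0032 for all genes compared. Without the 10 genes, 59 others were compared, with 3 past 2-fold higher (*Dll1*, *Neurl1b* and *Heyl*) and 0 lower. *Hes1* and *Dtx4*, both among the 10 genes chosen on this comparison, were the only genes of the list past 2-fold lower. The median with *Heyl* at its bound was the same. Ratios past 2-fold higher were common at the levels of these 3 genes. They made up 24.9% of the lowest group by level (*Dll1* and *Heyl*) and 13.9% of the next (*Neurl1b*). *Dll1* (0.521 and 3.61 CPM) and *Heyl* (0 and 2.41 CPM) passed the filter only through the second library.

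**Figure D3:**
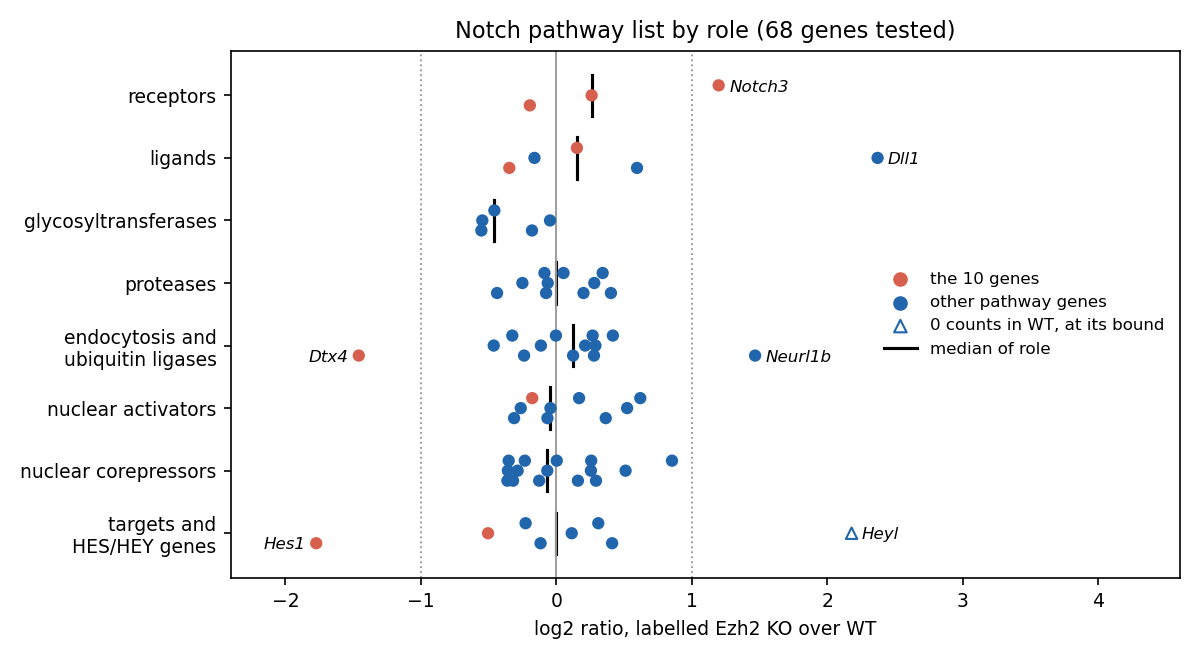
Log2 ratio (library labelled Ezh2 KO over WT) of the 68 compared genes of the Notch pathway list, by role, with the 10 genes in red. Black bars are medians and dotted lines mark 2-fold. The open triangle is *Heyl*, with 0 counts in WT, drawn at the bound set by a floor of 3 counts. *Hes1* and *Dtx4* are the 2 points beyond 2-fold on the lower side.

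Of 8 ligands, 5 were compared. The Delta ligand *Dll1* had 3 counts in WT against 15 in the Ezh2 KO-labelled library (log2 ratio 2.37, 0.94 to 5.19), and *Dll4*, which induces T-cell fate in the thymus, had 29 and 19 (-0.16, -1.08 to 0.72). *Notch4*, the remaining receptor, had 3 and 6 counts and did not pass the filter. All 5 glycosyltransferases, the enzymes that add sugars to the receptor, had ratios below 0, under TMM and total-count scaling as well, with a median of -0.46. Of all 12588 genes compared, 6344 were below 0. The intervals of 3 of the 5 lay wholly below 0, against 20.8% of all genes. The 2 most abundant of the 5 were *Mfng*, with 1389 and 1345 normalised counts (-0.05, -0.16 to 0.06), and *Poglut1*, with 444 and 323 (-0.46, -0.67 to -0.25). The interval of *Rfng*, named after its value was seen, also held 0 (-0.18, -0.45 to 0.09). *Pofut1* (-0.55, -0.79 to -0.32) and *Lfng* (-0.55, -0.93 to -0.18), named after their values were seen, had the lowest ratios of the role.

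Proteases that cut the receptor were all compared (10 of 10), and 0 were past 2-fold. *Adam10*, which makes the cut at the cell surface, had 1303 and 1581 normalised counts (0.28, 0.17 to 0.39), and *Ncstn*, a γ-secretase subunit, 825 and 855 (0.05, -0.09 to 0.19). Of 13 compared genes for endocytosis and ubiquitin ligation, *Neurl1b*, a ligase for ligands, had 14 and 30 counts (1.47, 0.58 to 2.57), *Nedd4* 3976 and 3673 normalised counts (-0.11), and *Dtx3l* 736 and 893 (0.28). *Dtx4* was the one past 2-fold lower. *Dtx1*, the Deltex gene best known as a Notch target, had 0 counts in both libraries.

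In the nucleus, 0 of 9 compared activators and 0 of 15 corepressors were past 2-fold. *Snw1*, which binds RBPJ, had 1383 and 1321 normalised counts (-0.07, -0.18 to 0.04), and the acetyltransferase *Kat2a* 786 and 655 (-0.26, -0.42 to -0.11). Of the corepressors, *Ctbp1* had 1858 and 1450 normalised counts (-0.36, -0.46 to -0.26) and *Hdac1* 1034 and 1036 (0.00). *Tle2*, a Groucho-type partner of HES proteins named after its value was seen, had the highest ratio of the role (0.85, 0.50 to 1.22).

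Of the 16 targets and HES/HEY genes, 8 were compared, and 4 of these had ratios below 0 and 4 above. *Hes6*, an inhibitor of HES1 named after its value was seen, had 304 and 298 counts, or 261 and 347 normalised counts (0.41, 0.18 to 0.65). *Hes5*, whose promoter is printed above and which was likewise named after its value was seen, had 20 and 16 counts (0.11, -0.93 to 1.14). *Heyl* had 0 counts in WT against 10 in the Ezh2 KO-labelled library. Set against a floor of 3 counts in WT this is 4.53-fold higher, and the counting interval of its log2 ratio begins at 1.61. *Hes2*, *Hes3* and *Hey2* had 0 counts in both, like *Hey1*. Of the HES and HEY genes compared (*Hes1*, *Hes5*, *Hes6* and *Heyl*), *Hes1*, which was chosen for its lower ratio, was the one past 2-fold lower. *Myc*, a Notch target in T-lineage cells, had 2638 and 3269 normalised counts (0.31, 0.23 to 0.38), and *Gata3* 487 and 449 (-0.12, -0.31 to 0.07). The T-lineage genes *Tcf7*, *Il2ra* and *Ptcra* had 0 to 2 counts in either library.

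HLH partners, which pair with or compete with HES proteins, were not past 2-fold in any of the 9 compared genes (median 0.09). *Tcf3* (E2A) had 1403 and 1497 normalised counts (0.09, -0.01 to 0.20), *Tcf4* 783 and 859 (0.13) and *Tcf12* 270 and 406 (0.58, 0.36 to 0.81).

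Genes with a ratio most like that of *Hes1* were sought among those whose mean reached 100 normalised counts. With 2 libraries a pattern is a single ratio, so likeness is the distance between log2 ratios. The 5 nearest were *Gas2l1* (-1.73, distance 0.042), *Btg2* (-1.63, 0.15), *Vwf* (-1.59, 0.19), *Fos* (-1.50, 0.27) and *Nr4a1* (-1.49, 0.28). *Btg2*, *Fos* and *Nr4a1*, 3 of the 5, are in a list of 29 immediate-early genes, which respond within minutes to stimuli such as cell handling. Of all 8083 genes searched, 21 were in that list, which was chosen with earlier results of these data known. Of the 46 genes searched that were past 2-fold lower, 6 were in it.

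That list was lower as a whole, which is a description given how it was chosen. Of its 26 compared genes, 24 had ratios below 0, against 6344 of all 12588 genes compared. Past 2-fold, 0 were higher and 9 (34.6%) lower, against 3.9% of all genes lower. The median was -0.74, also with *Egr2* (18 and 0 counts) at its bound. The counts below 0 were the same under TMM and total-count scaling. Summed levels were 76873 normalised counts in WT against 42203 in the Ezh2 KO-labelled library. The most abundant were *Fos*, with 13853 and 4892 normalised counts, *Zfp36*, with 11755 and 6498 (-0.86), and *Ier2*, with 7811 and 5071 (-0.62). *Egr1* (-1.26), *Socs3* (-1.12) and *Dusp5* (-1.25) were also past 2-fold lower. The part of this shift in the *Hes1* difference was not tested.

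**Figure D4:**
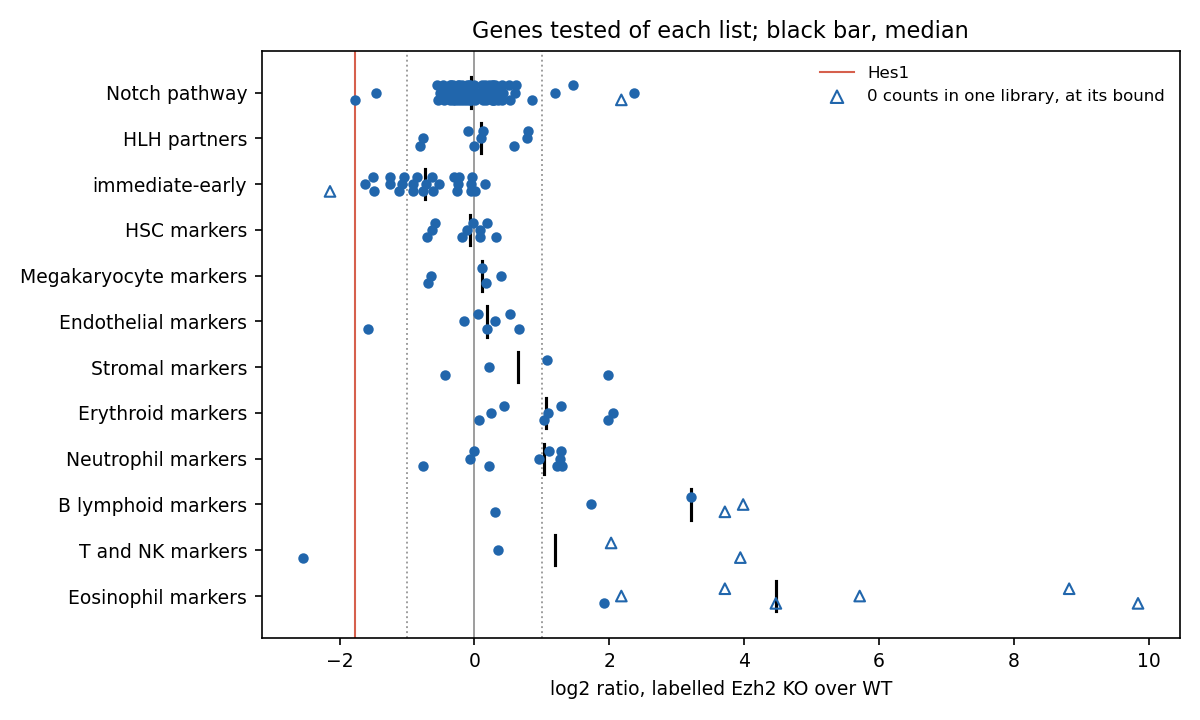
Log2 ratio (library labelled Ezh2 KO over WT) of the compared genes of each list; black bars are medians, dotted lines mark 2-fold, and the red line is *Hes1*. Open triangles are genes with 0 counts in one library, drawn at their bound. The immediate-early list is centred at -0.74, the Notch pathway at -0.05.

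Markers of other cells were read beside these genes, with WT first. Summed eosinophil markers (9 listed) were 10.3 and 3787 normalised counts. Of the 9, 6 were at 0 in WT (*Prg2*, *Epx*, *Prg3*, *Ear1*, *Ear2* and *Ear6*) and 0 in the other library. Past 2-fold higher were 7 of 7 compared. Those 6 passed the filter only through the second library, which by itself placed them past 2-fold higher. Neutrophil markers summed to 10377 and 18979, with 5 of 10 past 2-fold higher and 3 below 0 (lowest log2 ratio -0.76). Erythroid markers summed to 8811 and 11037, with 5 of 8 past 2-fold higher. Of the B-lymphoid markers, 4 of 5 compared were past 2-fold higher. Among them, *Igll1* and *Dntt* were at 0 in WT and had 29 and 35 counts in the second library. Both passed the filter only through that library. T and natural killer markers summed to 203 and 196, with 2 of 4 compared past 2-fold higher, 1 lower, and *Cd3d* and *Cd3e* at 0 in both libraries. The higher ones, *Cd3g* (0 and 9 counts) and *Il2rb* (0 and 34), also passed the filter only through the second library. Megakaryocyte markers summed to 1344 and 966, with 0 of 5 compared past 2-fold, 2 below 0 and 3 above, and *Gp6* at 0 in both. Endothelial markers, of a cell type rich in Notch receptors and ligands, summed to 2347 and 1511, with *Cdh5* at 0 in both libraries. That difference lay in *Vwf* (1439 and 479 normalised counts), which was past 2-fold lower, while 5 of the 7 compared had ratios above 0 and the median log2 ratio was 0.19. Stromal markers summed to 205 and 315, with 2 of 4 compared past 2-fold higher and 1 below 0. Of these markers, *Pdgfra* and *Kitl* were at 0 in both libraries, and *Col1a1* and *Col3a1* at 0 in the second. The part of these cells in the values of *Hes1*, *Dtx4*, *Notch3*, *Dll1* and *Heyl* was not tested.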

How the data were processed

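Per the labels and the study's methods, the authors extracted total RNA, amplified full-length cDNA with a SMARTer low-input kit and aligned single-end reads to mm10 with TopHat2 2.0.13 and Bowtie2 2.1.0. What the authors deposited is a raw, unnormalised count for each gene symbol. StringTie is named for counting, but each file closes with 5 entries named as htseq-count names reads without a gene (56.1% and 56.9% of all entries), so the counter and its strand setting are not stated. These entries stayed out of gene totals.

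Counts were divided by size factors (1.17 for WT, 0.858 for the library labelled Ezh2 KO) from DESeq2 1.42.0 in R 4.3.3, and log2 ratios were formed with a pseudocount of 1. With 1 library per group no count model could be fitted, so a gene is described by its fold and by an exact 95% (Clopper-Pearson) interval of its share of counts. TMM came from edgeR 4.0.16, and intervals from scipy 1.17.1 in Python 3.11.15, with pandas 2.3.3 for tables and matplotlib 3.10.9 for plots. The procedure was tested on simulated data. Gene models were from GENCODE M21 on GRCm38, the assembly of mm10 (23376 symbols matched directly, 670 by RefSeq synonym).

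The genes and lists were chosen with earlier results of these data known. Genes named are the 10, pathway genes past 2-fold, the 2 most abundant of each role, the 5 nearest to *Hes1*, checks of the libraries, and the 3 most abundant HLH partners and immediate-early genes with those past 2-fold at a mean of at least 100. Others are named as such. A marker gene of the B-lymphoid list is not reported here.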

Additional observations from a re-analysis of the deposited data

Results flagged for a closer look

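Reads with more than one alignment enter no gene count and lie outside the comparisons above. They made up 12.3% of all entries in the library labelled Ezh2 KO, above the 10.7% in WT, and no replicate shows how far this share moves between libraries.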

How the results depend on the processing

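Depth limits the weaker genes most: *Notch3*, *Jag1* and *Dtx4* rest on 10 to 58 counts per library. No paired analysis was possible because a single library stands for each genotype, and none could be left out. Against 1 of the 10 genes past 2-fold higher and 2 lower, a pseudocount of 5 gave 0 higher, a 4-fold threshold 0 and 0, and a minimum of 10 CPM 0 and 1. For the pathway list, against 4 higher and 2 lower, a 1.5-fold threshold gave 7 higher, a 4-fold threshold 2 and 0, a minimum of 10 CPM 0 and 1, and no filter on level 9 higher. For all genes, against 618 higher and 491 lower, a 1.5-fold threshold gave 1321 and 1261, a 4-fold threshold 198 and 116, a minimum of 10 CPM 96 and 115, and no filter 1404 and 1098. The higher share of all genes past 2-fold went from 55.7% to 45.5% with the 10 CPM minimum. Scaling, thinning and trend corrections left these counts within 1.5 times. The median of the pathway list lay between -0.067 (minimum of 10 CPM) and -0.0034 (no filter on level). Total-count scaling put the median of all genes, a result added after the data were seen, at 0.03.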
